A study of Rattus norvegicus with 8 samples.

Results

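The antioxidant and NRF2 target genes described here are *Hmox1*, *Nqo1*, *Gclc*, *Gclm*, *Txnrd1*, *Srxn1*, *Prdx1*, *Sod1*, *Sod2* and *Cat*, 10 of the 34912 gene names carried by rat probes on the array. They were chosen by name, as genes of the response to oxidative stress, and every rat probe whose gene name on the array equals one of them was used, which gave 11 probes. Expression was measured on 8 one-color arrays of osteoblast-like cells, which are primary cells released from the calvariae (the skull cap, freed of periosteum) of 3 to 5-day-old Wistar rats by serial enzyme digestion. The 4 non-irradiated arrays hold RNA of cultures that received 0 J/cm2. The 4 irradiated arrays hold RNA of cultures taken 6 h after 60 s under an Er:YAG laser, an infrared dental laser whose light is strongly absorbed by water, at 3.3 J/cm2. Irradiation was done after the culture medium had been removed, and osteoinduction medium with ascorbic acid, β-glycerophosphate and dexamethasone was then added to dishes used for RNA. Whether the non-irradiated dishes also stood without medium is not given in the sources used here. Replicate numbers 1 to 4 run through both groups, and the irradiated and the non-irradiated culture of 1 number are called a pair.

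NRF2, encoded by *Nfe2l2*, is the transcription factor that answers oxidants and electrophiles. In unstressed cells KEAP1 holds it for degradation, and oxidation of KEAP1 lets NRF2 accumulate, pair with a small MAF protein and bind antioxidant response elements in its target genes. *Hmox1*, *Nqo1*, *Gclc*, *Gclm*, *Txnrd1*, *Srxn1* and *Prdx1* are well-known targets. *Sod1*, *Sod2* and *Cat* encode the core enzymes that remove superoxide and hydrogen peroxide, and their transcripts depend less on NRF2. In osteoblasts, reactive oxygen is known to slow differentiation and mineralization. The comparison of irradiated with non-irradiated cells addressed whether transcripts of this system differed 6 h after the laser.

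None of the 9 antioxidant and NRF2 target genes that could be tested differed between irradiated and non-irradiated cells beyond the spread between pairs. *Gclm* could not be tested. Of the 10 probes above background, which cover 9 genes, 0 passed an adjusted p of 0.1, where 0% of all 26391 probes tested passed (limma with Benjamini-Hochberg adjustment). At an unadjusted p below 0.05 the count was 0 of 10, and 2.54% of all probes were below that limit, 1.42% with higher and 1.12% with lower signal in irradiated cells. Fold changes lay above 1 for 5 probes and below 1 for the other 5. A probe higher in irradiated cells in all 4 pairs, or lower in all 4, occurred 0 times among the 10, where 3.57% of all probes were higher in every pair and 4% lower. For 7 of the 10, at least 3 pairs shared a direction, as for 58.1% of all probes. The irradiated and non-irradiated arrays overlapped for every probe, while 0.579% of all probes had groups that did not overlap. A log2 fold change above 1 or below -1 occurred for 0 of the 10 and for 0.072% of all probes. The 95% interval of the log2 fold change stayed within a 2-fold change in either direction for all 10, as it did for 95.2% of all probes. Each interval is for 1 probe and comes from limma, which steadies the variance of a probe with that of all probes. The highest upper limit was a 1.57-fold increase and the lowest lower limit a 1.65-fold decrease. Intervals from the pairs of a probe alone are not given here, so staying within a 2-fold change rests on the limma variance. Such intervals can be wider, as for *Prdx1*, whose pair differences had an SD of 0.58. *Gclm* has no interval.

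The signal of a probe is given as log2 of the background-corrected brightness after quantile normalization, so that 1 unit is a 2-fold difference. Levels of different probes are not compared, since the brightness of a probe also depends on its sequence. Across all probes tested, the SD over the 4 arrays of a group had a median of 0.30 log2 units in both groups. The median processed signal ranged from 56.2 to 84.8 over the 8 arrays, with 26543 to 30490 probes well above background. All arrays lay on 1 slide and were read in 1 scan, with non-irradiated arrays in columns 1 and 3 and irradiated arrays in columns 2 and 4, so slide column and irradiation cannot be told apart. Non-irradiated 1 and irradiated 2 resembled each other more than irradiated 2 resembled its own partner. Their deviations from the group means correlated at 0.44 over probes, against 0.054 within pair 2. Non-irradiated 1 correlated more highly with its own partner, irradiated 1, at 0.61. Since each RNA came from a whole culture, a lower share of a cell type and less RNA per cell cannot be told apart.

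*Hmox1* encodes heme oxygenase 1, which breaks heme down to biliverdin, iron and carbon monoxide and is among the most inducible genes of oxidative and heat stress. Its probe, which lies at chr19:13969336-13969395 of rn4 on the plus strand, is shown because the reading of *Hmox1* rests on it alone.

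Hmox1 probe: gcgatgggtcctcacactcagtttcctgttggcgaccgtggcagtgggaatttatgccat

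For *Hmox1* the non-irradiated arrays 1 to 4 gave log2 signals of 6.96, 6.96, 6.94 and 7.63, and the irradiated arrays 1 to 4 gave 7.37, 6.54, 7.39 and 7.87. Both arrays of pair 4 were the highest of their group, and irradiated 2 was the lowest of all 8. *Hmox1* was higher after irradiation in pairs 1, 3 and 4, by 0.41, 0.45 and 0.24 log2 units, and lower in pair 2, where it fell by 0.42. Its log2 fold change was 0.17 with an SE of 0.18 (95% interval -0.26 to 0.60, limma unadjusted p = 0.379, adjusted p = 1.00). This value moved most when pair 2 was left out. Without pair 2 the log2 fold change of *Hmox1* was 0.36, with an unadjusted p of 0.022 and an adjusted p of 0.868, in a fit where 5.33% of all probes had an unadjusted p below 0.05. Without pairs 1 and 2 it was 0.34, at an unadjusted p of 0.050 and an adjusted p of 0.784. The value of *Hmox1* was lower without pair 3, at 0.075, without pair 1, at 0.088, and with the deposited log2 values, at 0.090.

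*Nqo1* encodes a quinone reductase that uses NADPH to turn quinones into hydroquinones and is a standard readout of NRF2 activity. Its single probe lies at chr19:37251727-37251786 of rn4 on the minus strand and is shown for the same reason as that of *Hmox1*.

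Nqo1 probe: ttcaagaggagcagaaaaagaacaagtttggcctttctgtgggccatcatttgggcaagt

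*Nqo1* gave log2 signals of 9.24, 9.91, 9.96 and 10.63 on non-irradiated arrays 1 to 4 and of 9.49, 9.39, 10.23 and 10.42 on irradiated arrays 1 to 4. The spread lay between pairs rather than between groups, with both arrays of pair 4 at the top, and non-irradiated 1 and irradiated 2 at the bottom. *Nqo1* was higher in pairs 1 and 3, by 0.24 and 0.27, and lower in pairs 2 and 4, where it fell by 0.52 and 0.21. Its log2 fold change was -0.055 with an SE of 0.17 (95% interval -0.47 to 0.36, limma unadjusted p = 0.760). Without pair 2 the direction turned, to a log2 fold change of 0.10.

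**Figure D1:**
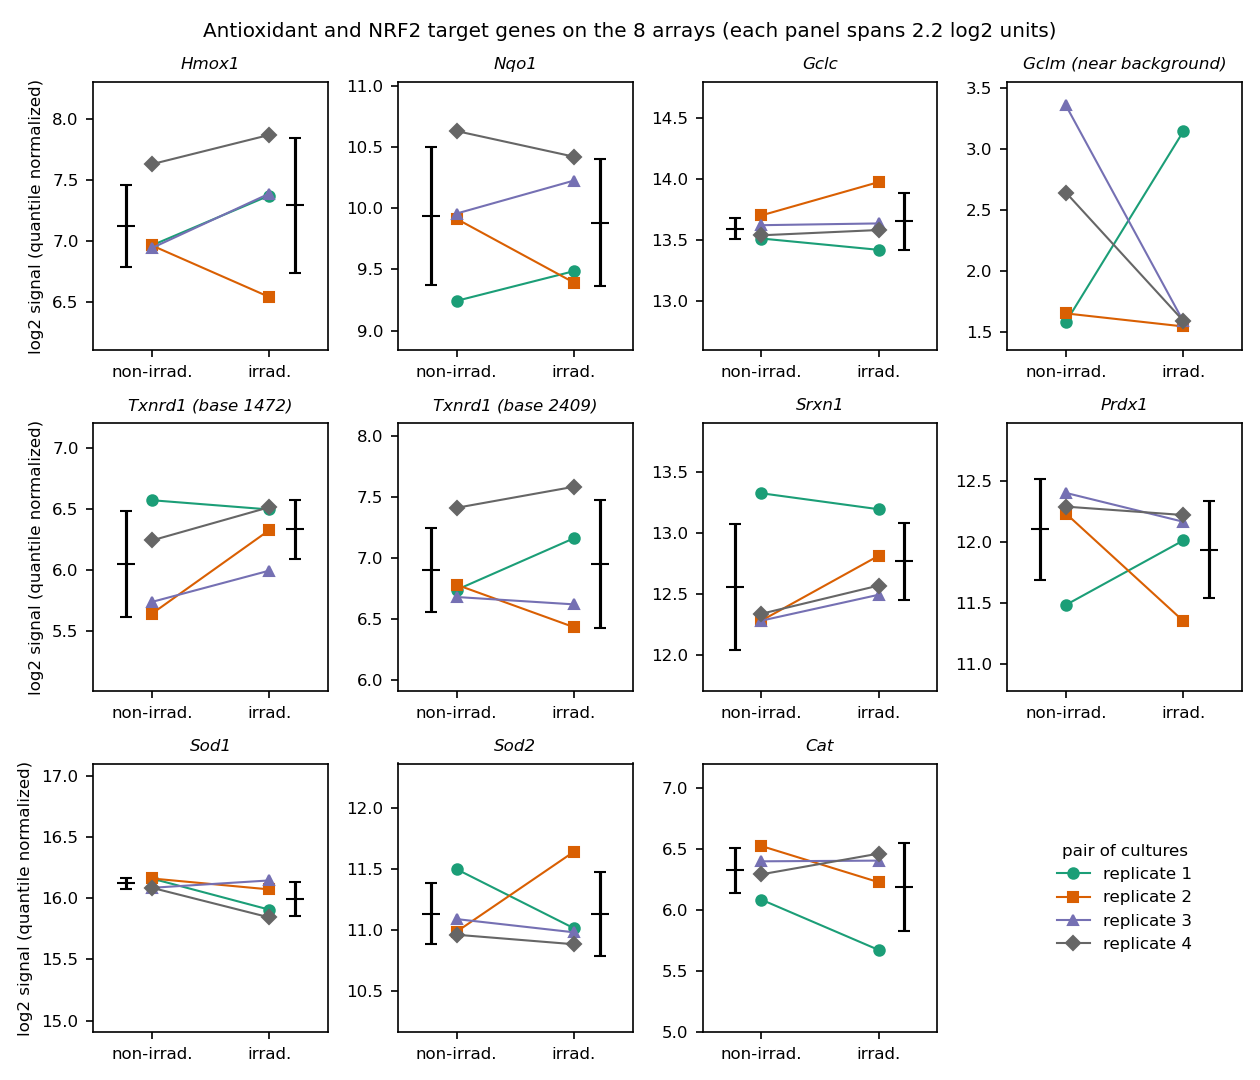
Log2 signal after quantile normalization (vertical axis) of the 11 probes on non-irradiated and irradiated arrays, with a line for each pair of cultures and, beside each group of a tested probe, its mean and SD over 4 arrays. All panels span the same number of log2 units. The lines of *Hmox1* rise in 3 pairs and fall in pair 2, those of *Sod2* rise in pair 2 and fall in the others, and for each probe the groups overlap. *Txnrd1* has a panel for each of its probes, named by its first base in the transcript.

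*Gclc* and *Gclm* encode the catalytic and the modifier subunit of glutamate-cysteine ligase, the rate-limiting enzyme of glutathione synthesis. *Gclc*, read at chr8:82762574-82762633 of rn4 on the plus strand, gave 13.51, 13.70, 13.62 and 13.54 on non-irradiated arrays 1 to 4 and 13.42, 13.98, 13.64 and 13.58 on irradiated arrays 1 to 4. Apart from irradiated 2, which was the highest, these arrays lay close together, and the SD was 0.086 among the non-irradiated and 0.23 among the irradiated. The log2 fold change of *Gclc* was 0.060 with an SE of 0.12 (95% interval -0.23 to 0.35, limma unadjusted p = 0.631). *Gclm* was well above background on 0 of the 8 arrays, so it was not tested and has no fold change. Its only probe, at chr2:218915215-218915274 of rn4 on the plus strand, holds 15% G and C, against 35% to 55% in the other 10 probes, and gave signals from 1.55 to 3.35. Whether the transcript was low or the probe bound poorly was not tested.

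*Txnrd1*, *Srxn1* and *Prdx1* belong to the thioredoxin system. Thioredoxin reductase 1, the product of *Txnrd1*, recharges thioredoxin with NADPH, peroxiredoxin 1 uses thioredoxin to reduce hydrogen peroxide, and sulfiredoxin 1 restores peroxiredoxins that have been overoxidized. The array reads *Txnrd1* with 2 probes, on the minus strand of chromosome 7 in rn4. The probe at chr7:23065196-23065255 begins at base 1472 of the transcript and is shown because its estimate was the highest among the antioxidant and NRF2 target genes. The other begins at base 2409, and its listed position, chr7:23055528-23055561, covers 34 of its 60 bases.

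Txnrd1 probe at base 1472: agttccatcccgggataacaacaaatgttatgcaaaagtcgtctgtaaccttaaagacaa

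At base 1472, *Txnrd1* gave 6.57, 5.64, 5.74 and 6.24 on non-irradiated arrays 1 to 4 and 6.50, 6.33, 6.00 and 6.51 on irradiated arrays 1 to 4. It was higher after irradiation in pairs 2, 3 and 4, by 0.68, 0.26 and 0.27, and fell by 0.076 in pair 1. The log2 fold change was 0.28 with an SE of 0.15 (95% interval -0.09 to 0.65, limma unadjusted p = 0.110). Without pair 1 it was 0.40, at an unadjusted p of 0.048 and an adjusted p of 0.908, in a fit where 4.08% of all probes had an unadjusted p below 0.05. Without pair 2 it was 0.15, at an unadjusted p of 0.289, and with the deposited log2 values it was also 0.15. At base 2409, *Txnrd1* gave 6.74, 6.78, 6.68 and 7.41 on the non-irradiated arrays and 7.16, 6.43, 6.62 and 7.58 on the irradiated arrays, in the same order. There the log2 fold change was 0.047 with an SE of 0.16 (95% interval -0.33 to 0.43, limma unadjusted p = 0.774). The probes disagreed in direction in pairs 1, 2 and 3, and in pair 2 the *Txnrd1* signal was 0.68 higher at base 1472 and fell by 0.35 at base 2409. The value of the gene therefore depends on the probe that is read.

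*Srxn1*, at chr3:142462543-142462602 of rn4 on the plus strand, gave 13.32, 12.28, 12.28 and 12.34 on non-irradiated arrays 1 to 4 and 13.19, 12.81, 12.49 and 12.57 on irradiated arrays 1 to 4. Both arrays of pair 1 stood above all others. *Srxn1* fell by 0.13 in pair 1 and was higher in pairs 2, 3 and 4, by 0.53, 0.21 and 0.23. Its log2 fold change was 0.21 with an SE of 0.14 (95% interval -0.14 to 0.56, limma unadjusted p = 0.187). For *Srxn1* it was 0.10 without pair 2 and 0.32 without pair 1.

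*Prdx1* was read by a probe printed in 10 spots per array. The probe is placed at chr5:136983425-136984996 of rn4 on the plus strand, a stretch of 1572 bases for a probe of 60, so its bases are not contiguous in the genome. *Prdx1* gave 11.49, 12.23, 12.40 and 12.29 on non-irradiated arrays 1 to 4 and 12.01, 11.35, 12.17 and 12.22 on irradiated arrays 1 to 4. Non-irradiated 1 and irradiated 2 were again the lowest. The pair differences ranged from -0.88 in pair 2 to 0.53 in pair 1, the widest range of the 10 probes, and the log2 fold change was -0.16 with an SE of 0.23 (95% interval -0.73 to 0.40, limma unadjusted p = 0.501).

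*Sod1* encodes the cytosolic copper and zinc superoxide dismutase, *Sod2* the mitochondrial manganese enzyme, and *Cat* encodes catalase, which breaks down hydrogen peroxide in peroxisomes. *Sod1*, at chr11:29810797-29810856 of rn4 on the minus strand, gave 16.16, 16.16, 16.09 and 16.09 on non-irradiated arrays 1 to 4 and 15.91, 16.07, 16.15 and 15.84 on irradiated arrays 1 to 4. It was the steadiest of the 10 probes, with a range of 0.32 over the 8 arrays, and its log2 fold change was -0.13 with an SE of 0.12 (95% interval -0.42 to 0.15, limma unadjusted p = 0.303). *Sod2*, at chr1:41863005-41863064 of rn4 on the minus strand, gave 11.50, 10.99, 11.09 and 10.96 on non-irradiated arrays 1 to 4 and 11.02, 11.64, 10.98 and 10.89 on irradiated arrays 1 to 4. Non-irradiated 1 and irradiated 2 were its highest arrays, the reverse of their place for *Nqo1* and *Prdx1*. The log2 fold change of *Sod2* was -0.0036 with an SE of 0.20 (95% interval -0.49 to 0.48, limma unadjusted p = 0.986), since a rise of 0.65 in pair 2 offset decreases in the other 3 pairs.

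*Cat* was read at chr3:88683063-88685007 of rn4 on the plus strand, a stretch of 1945 bases for 60 of probe, which is likewise split. *Cat* gave 6.08, 6.52, 6.40 and 6.29 on non-irradiated arrays 1 to 4 and 5.67, 6.23, 6.40 and 6.46 on irradiated arrays 1 to 4. It fell by 0.41 and 0.30 in pairs 1 and 2, differed by 0.0057 in pair 3 and was higher by 0.17 in pair 4. The log2 fold change of *Cat* was -0.13 with an SE of 0.14 (95% interval -0.48 to 0.21, limma unadjusted p = 0.381). Without pair 1 it was -0.040, and without pair 4 it was -0.23.

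**Figure D2:**
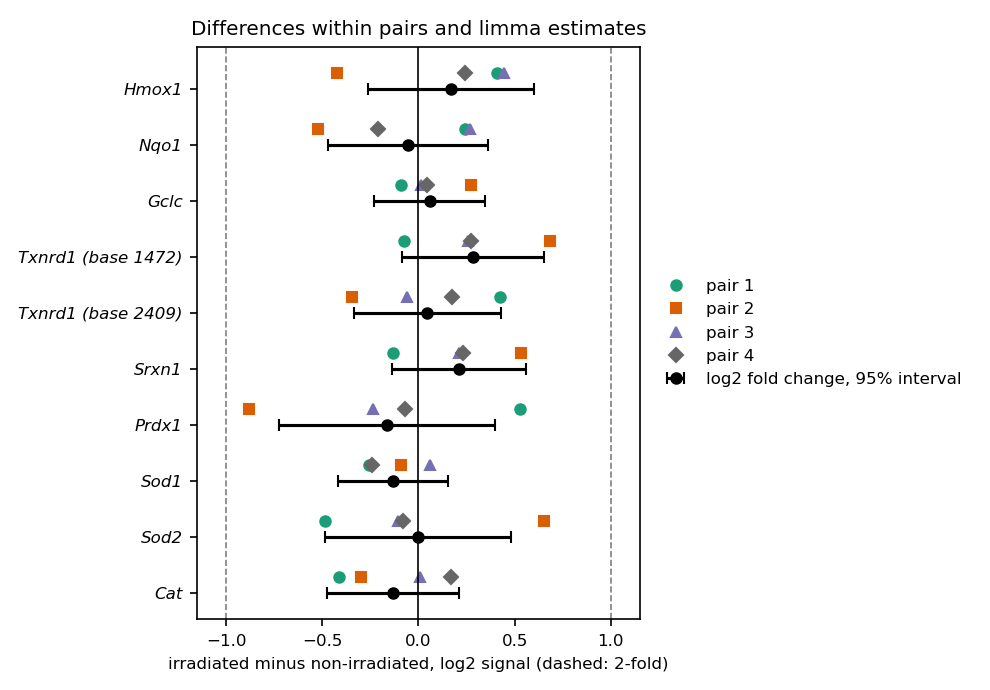
Irradiated minus non-irradiated log2 signal (horizontal axis) of the 10 tested probes, with a colored symbol for each pair and a black point for the limma log2 fold change with its 95% interval. Every interval crosses 0 and ends inside the dashed lines at a 2-fold change. Pair 2 lies at one end of the 4 pairs for 8 of the 10 probes, and the share over all probes was not taken. Within pair 2 the deviations from group means correlated at only 0.054 over all probes, so this is not read as a trait of these genes.

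With the *Txnrd1* probe of higher mean signal standing for its gene, the 9 genes had a median log2 fold change of -0.0036, beside -0.0035 over all probes tested. By pair the median of the 9 genes was -0.093, -0.30, 0.015 and 0.043 for pairs 1 to 4, and that of all probes was -0.064, 0.085, -0.013 and 0.0014. The genes went both ways in pair 2, from -0.88 for *Prdx1* to 0.65 for *Sod2*, and the median there rests on the *Txnrd1* probe at base 2409, which fell by 0.35 where the other was 0.68 higher. An exact sign-flip test over the 4 pairs (two-sided) gave p-values from 0.250 to 1.00 for single probes, where 4 pairs can give no p below 0.125.

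Non-irradiated 1 and irradiated 2 were the lowest of the 8 arrays in 2 of the 10 probes (*Nqo1* and *Prdx1*), which is 20% beside 16.3% of all probes. They were the highest in 1 of 10 (*Sod2*), beside 17.3% of all probes. Among other genes of the system, 14 of 66 were lowest on these arrays (21.2%) and 11 were highest (16.7%), beside 16.3% and 17.3% of all probes. The lowest included the peroxiredoxins *Prdx2*, *Prdx3*, *Prdx4* and *Prdx5*, and also *Xdh*, listed as a source of reactive oxygen. The highest included *Nox4*, an NADPH oxidase that makes reactive oxygen, and also *Aldh3a1* and *Ugt1a6*, listed under detoxification. The part of these arrays in the pair differences was not tested. Without pairs 1 and 2, which hold these arrays, 0 of the 10 probes passed either limit, and 6.34% of all probes had an unadjusted p below 0.05.

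The wider pathway was described by 69 other genes in 8 groups, of which 66 were above background and tested. Among them 1 had an unadjusted p below 0.05, again beside 2.54% of all probes. There were 37 genes with a log2 fold change above 0 and 29 below, with a median of 0.0083. *Mgst1*, *Osgin1* and *Cybb* were too dim to be tested. *Nfe2l2* itself gave 12.75, 12.23, 12.05 and 12.44 on non-irradiated arrays 1 to 4 and 12.61, 12.58, 12.20 and 12.49 on irradiated arrays 1 to 4, a log2 fold change of 0.10 with an SE of 0.13 (limma unadjusted p = 0.449). *Keap1*, which holds NRF2 back, differed by 0.13 with an SE of 0.14 (limma unadjusted p = 0.394). NRF2 is controlled mainly as a protein, which these arrays do not measure.

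The 1 gene past the unadjusted limit was *Mafk*, a small MAF partner of NRF2. It gave 4.17, 4.59, 4.64 and 4.58 on non-irradiated arrays 1 to 4 and 4.32, 3.53, 3.86 and 3.90 on irradiated arrays 1 to 4. *Mafk* was thus lower in pairs 2, 3 and 4 and higher in pair 1. These signals are low, though well above background on all arrays of both groups. The part of low signal in the value of *Mafk* was not tested. Its log2 fold change was -0.59 with an SE of 0.21 (95% interval -1.11 to -0.076, limma unadjusted p = 0.031, adjusted p = 1.00). The count of pathway genes past the unadjusted limit was 0 without pair 3, without pairs 3 and 4, and under 6 of the other ways of processing. Without pairs 3 and 4 only 0.617% of all probes were past it. The other small MAF genes listed, *Mafg* and *Maff*, differed by 0.091 and 0.0042, with unadjusted p-values of 0.473 and 0.972.

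In the glutathione group 9 of 15 tested genes had values above 0 and 6 below, from -0.19 for *Slc7a11*, the cystine importer, to 0.14 for *Glrx*, glutaredoxin. *Slc7a11* had an unadjusted p of 0.531, and *Gsr*, glutathione reductase, differed by 0.12 at an unadjusted p of 0.325. In the thioredoxin and peroxiredoxin group 4 of 10 were above 0, and thioredoxin itself, *Txn1*, differed by 0.016 with an SE of 0.11 (limma unadjusted p = 0.889). The 6 genes of NADPH supply ranged from -0.10 for *Idh1* to 0.10 for *Pgd*. Heme and iron handling ranged over its 7 genes from -0.057 for *Ftl1*, ferritin light chain, to 0.081 for *Hmox2*, the constitutive heme oxygenase. The 9 tested detoxification genes ranged from -0.13 for *Nqo2* to 0.14 for *Aox1*, and the 3 metallothioneins from -0.069 for *Mt1* to 0.064 for *Mt3*. Among 6 tested sources of reactive oxygen, *Ncf1* had the highest value, 0.22, with an unadjusted p of 0.384.

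**Figure D3:**
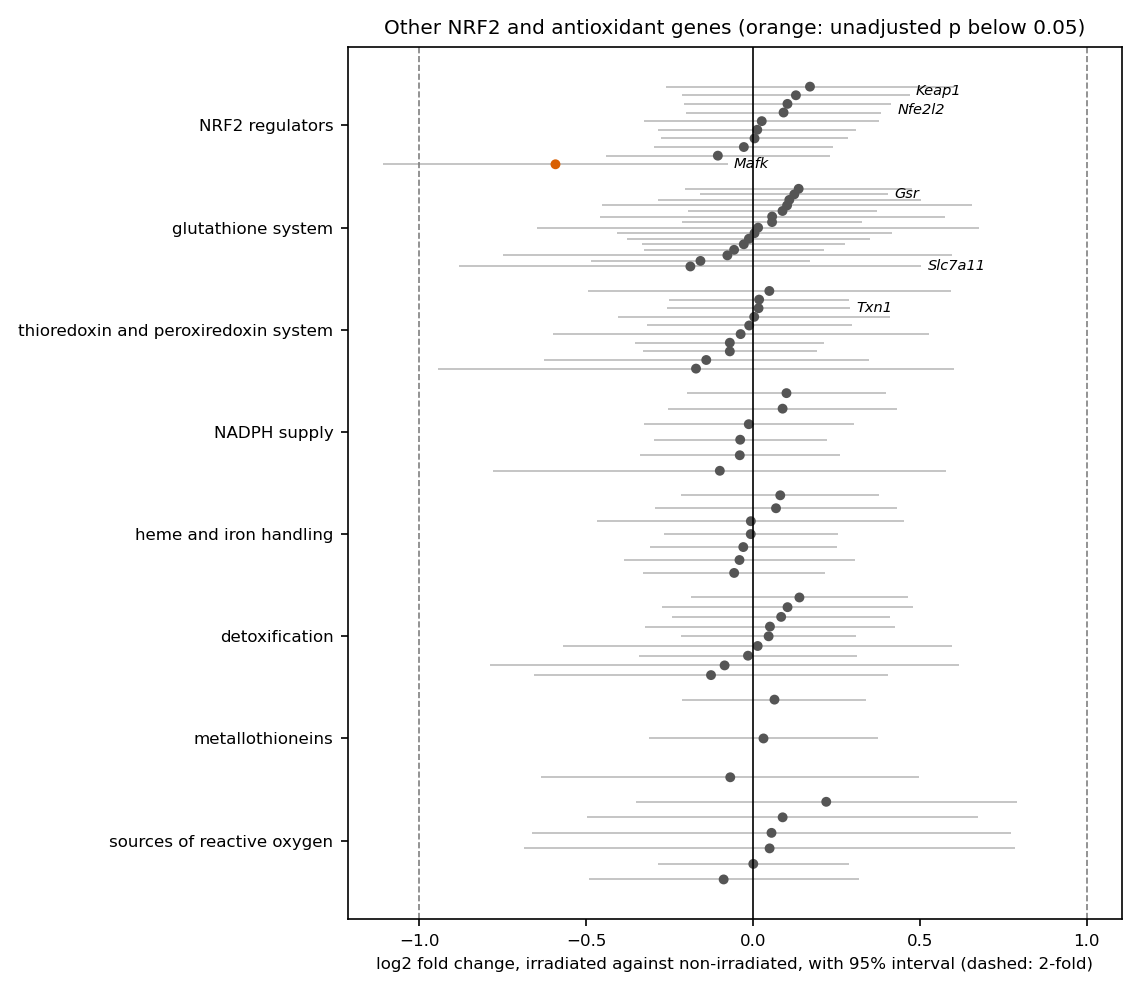
Log2 fold change of irradiated against non-irradiated cells (horizontal axis) with its 95% interval for the 66 other tested genes of the NRF2 and antioxidant system, ordered by value within 8 groups. All but *Mafk*, in orange, have intervals that cross 0, and *Mafk* is the 1 gene whose interval passes the dashed line at a 2-fold decrease.

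The log2 signal of *Hmox1* correlated with the *Txnrd1* probe at base 2409 at r = 0.88 and with the one at base 1472 at 0.29, as a description over 8 arrays that share pairs and a slide. With the other NRF2 targets its r was 0.74 for *Nqo1*, 0.59 for *Prdx1*, -0.17 for *Srxn1* and -0.64 for *Gclc*. With *Sod1*, *Sod2* and *Cat* it was -0.57, -0.79 and 0.05. Among the 26250 probes measured on all 8 arrays, the 3 most like *Hmox1* were those of *Pcsk1n* (r = 0.976), *Mroh5* (0.973) and *Gss* (0.971), and *Gss* encodes glutathione synthetase. The 3 most like *Nqo1*, at r = 0.996, 0.995 and 0.994, carry no gene symbol on the array. For each of these 6 probes the log2 fold change lay between -0.058 and 0.11.

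Promoter sequences of 9 of the 10 genes were matched in RefSeq (GRCr8), each from 250 bases before to 50 bases after a transcript start, in 10 windows. *Hmox1* was not matched. The short form of the antioxidant response element, TGACNNNGC, searched on both strands, was found for *Gclm*, *Prdx1*, *Sod2* and *Txnrd1*, and 12.1% of all 33469 such windows hold it. The form TGANTCAGC, which contains the AP-1 motif TGANTCA and can coincide with the short form, was found for *Prdx1* and *Srxn1*, and 1.11% of all windows hold it. Both matches of this longer form are shown, with the match in capitals and 20 bases on each side. The short form in *Sod2* and *Txnrd1*, 27 to 35 and 70 to 78 bases before the start, is not shown. Sequence outside the windows was not searched, so a gene without a match here may hold an element farther away.

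Prdx1, chr5:135383751-135383799 of GRCr8, plus strand: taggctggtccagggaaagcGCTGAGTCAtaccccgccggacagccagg

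Srxn1, chr3:161064787-161064835 of GRCr8, plus strand: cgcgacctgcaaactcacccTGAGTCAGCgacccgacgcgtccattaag

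The *Prdx1* match lies on the minus strand, 127 to 135 bases before the start, where 1 stretch answers to both forms, and the *Srxn1* match spans the start. Beside them stand a log2 fold change of -0.16 for *Prdx1* and of 0.21 for *Srxn1*, both with intervals that cross 0. A match describes letters and not a bound site.

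The labelled cell type was checked against its markers, and all 8 osteoblast markers were above background, among them *Col1a1*, *Runx2*, *Alpl* and *Spp1*. Of 8 macrophage markers 4 were above background (*Cd68*, *Itgam*, *Cd14* and *Lyz2*), while *Csf1r*, *Ptprc*, *Adgre1* and *Cd163* were not. All 5 endothelium markers were above background too, as were 5 of 6 muscle markers and 3 of 4 red blood cell markers. Detection above background therefore does not single out osteoblasts. The mean level of the osteoblast list ranged from 9.93 to 10.75 over non-irradiated arrays and from 9.81 to 10.75 over irradiated arrays. Cartilage markers were all above background and varied between pairs, their mean level ranging from 8.44 to 11.08 and from 8.59 to 11.20, and *Col2a1*, the collagen of cartilage, gave 9.84 and 10.23 in pair 1 and 14.68 to 15.88 on the other arrays. Pair 1 was also the pair with the highest *Srxn1*, and the part of cartilage cells in this was not tested. The osteoblast, macrophage, endothelium, muscle, cartilage and red blood cell lists held 8, 4, 5, 5, 5 and 3 tested genes. Of these, 0 had an unadjusted p below 0.05 between irradiated and non-irradiated arrays, beside 2.54% of all probes. With so few genes, a count of 0 cannot show whether the share of a cell type differed.

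**Figure D4:**
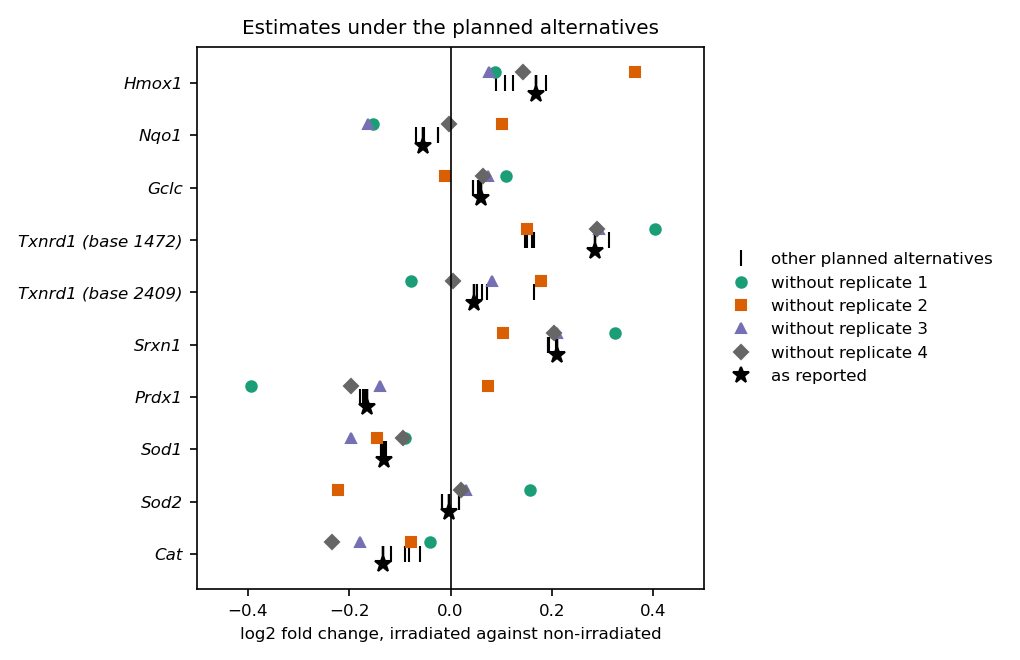
Log2 fold change of the 10 tested probes (horizontal axis) as reported (star), under the other planned ways of processing (black ticks) and with each pair left out (colored symbols). With 1 pair left out *Prdx1* ranges from -0.39 to 0.074, and *Sod1* from -0.20 to -0.091. The ticks of *Txnrd1* at base 1472 reach down to 0.15, from 0.28 as reported.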

How the data were processed

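Spot intensity values of 8 Agilent one-color arrays, labelled from 200 ng of total RNA each, were deposited as written by Feature Extraction 11.0.1.1, which subtracts background and does not normalize between arrays. The authors also deposited quantile normalized log2 values of 24029 rows, used as an alternative. Positions are those the array lists for rn4, gene names those of its design, and exon or UTR annotation was not used here. Processed signals were quantile normalized as log2 over the 58717 rat spots, outlying spots were left out, and spots of a probe were averaged. A probe was kept when over 50% of its spots were well above background on every array of either group, which 26404 were, and 26391 could be fitted with limma 3.58.1 (R 4.3.3). The replicate number was a block, and tests were two-sided with Benjamini-Hochberg adjustment. The methods do not name the block. It was used because both arrays of a number carry the same animal number, and the study's t statistics follow from paired differences. Deviations from group means correlated within numbers 1 to 4 at 0.608, 0.0542, 0.571 and 0.749 over probes. That the cultures were separate is given only by their numbering. With 4 arrays a group, precision is limited by their number. Alternatives were 75th percentile scaling, normexp (offset 50), the mean signal, other filters, the deposited values, outlying spots kept, each replicate left out, no or a random block, a trended robust prior, the methods' t-test on pairs, and averaged probes. Leaving out replicates 1 and 2, or 3 and 4, which are the rows of the slide, was added after seeing the data. Named were all members and their probes, *Nfe2l2*, *Keap1*, *Slc7a11*, *Gsr*, *Txn1*, pathway genes at an unadjusted p below 0.05, and the 3 probes most like *Hmox1* and *Nqo1*. Other genes were named as examples after their values were seen. The members and lists were chosen with earlier results of these data known.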

Additional observations from a re-analysis of the deposited data

Results flagged for a closer look

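In 3 of the 20 groups of 4 arrays (15%), 1 array stood apart from the other 3 by Dixon's test, at a nominal level of 5%. The share over all probes was not taken, and the groups come from 10 probes on the same 8 arrays. The count therefore cannot show an excess for these genes. *Hmox1* gave 7.63 in non-irradiated 4, against 6.94 to 6.96 in the others. *Txnrd1*, read at base 2409, gave 7.41 in non-irradiated 4, against 6.68 to 6.78. *Srxn1* gave 13.32 in non-irradiated 1, against 12.28 to 12.34. In each case the irradiated array of the same pair was the highest of its group as well.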

How the results depend on the processing

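Over 18 alternatives, 16 of them planned, no member probe passed an adjusted p of 0.1, and the lowest adjusted p was 0.784. Without replicate 2, the lowest adjusted p of any probe was 0.868. Of 179 values of single probes, 166 kept their direction and 13 turned. Many of the 166 equal the reported value and say nothing about stability. The other filters, outlying spots kept, no or a random block, the trended robust prior and the t-test left each log2 fold change unchanged. Averaging probes changed only *Txnrd1*, whose averaged value of 0.17 is counted for both of its probes. Without replicate 2, *Nqo1* turned to 0.10, *Gclc* to -0.012 and *Prdx1* to 0.074. Without replicate 1, *Txnrd1* at base 2409 turned to -0.078 and *Sod2* to 0.16. *Sod2*, at -0.0036 as reported, also turned to 0.031 without replicate 3, to 0.021 without replicate 4, and to 0.016 with normexp and with the mean signal. Without replicates 1 and 2, *Nqo1* turned to 0.030 and *Cat* to 0.088, and without replicates 3 and 4, *Hmox1* turned to -0.0072 and *Sod2* to 0.086. With 1 replicate left out, these probes ranged from -0.16 to 0.10 (*Nqo1*), -0.012 to 0.11 (*Gclc*), -0.078 to 0.18 (*Txnrd1* at base 2409), -0.39 to 0.074 (*Prdx1*) and -0.22 to 0.16 (*Sod2*). The probes that kept their direction with 1 replicate left out ranged from 0.075 to 0.36 (*Hmox1*), 0.15 to 0.40 (*Txnrd1* at base 1472), 0.10 to 0.32 (*Srxn1*), -0.20 to -0.091 (*Sod1*) and -0.23 to -0.040 (*Cat*). The count of member probes at an unadjusted p below 0.05 ranged from 0 to 1 with 1 replicate left out. It was 1 of 10 without replicate 1, beside 4.08% of all probes, and 1 of 10 without replicate 2, beside 5.33%. The count of pathway genes ranged from 0 to 2, with 2 of 66 without replicate 2, beside the same 5.33%. It was 0 with normexp, the mean signal, no filter, the deposited values (59 genes in place of 66), the trended robust prior and the methods' t-test. It was also 0 without replicate 3 and without replicates 3 and 4, where 0.617% of all probes were below that limit without replicates 3 and 4. For the other settings the share over all probes is not given. The median of the 9 genes ranged from -0.040 to 0.074 with 1 replicate left out. With no replicate block, the log2 fold change of *Hmox1* was again 0.17, at a limma unadjusted p of 0.575. In that fit 0 member probes and 1 pathway gene had an unadjusted p below 0.05, and the share over all probes is not given. The pairing changed no call of a member probe. With 4 pairs the SE of the member probes ranged from 0.12 to 0.23 log2 units, which limits what could be detected. The *Txnrd1* probe at base 2409 is not among the deposited values as analysed here.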
